A study of Mus musculus with 6 samples.

Results

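The SLC25 family are the carriers of the mitochondrial inner membrane, proteins that exchange one metabolite for another between matrix and cytosol. In liver they link the matrix to pathways that run on both sides of the membrane: acylcarnitines enter for fatty acid oxidation, ornithine and aspartate cross for the urea cycle and gluconeogenesis, ADP and phosphate enter for ATP synthesis, and citrate and malate leave for use in the cytosol. The carriers described here are all array probes whose deposited gene symbol is Slc25a followed by a number. They comprised 64 probes of 41 genes, of 45281 probes and 28908 gene names in all. Of these genes 24 had 1 probe and 17 had several, at most 3.

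Livers of 3 male C57BL/6 mice deficient in Creb3l3 (Creb3l3 KO) were set against those of 3 male C57BL/6 wild-type mice (WT). All 6 mice ate normal chow and were fasted for 24 h, and the groups were littermates. Their age, the extent of the deletion and the cells that carry it are not given in the sources used here. Creb3l3 encodes CREBH, a hepatocyte transcription factor that is held in the endoplasmic reticulum membrane and released by cleavage. Each mouse gave 1 RNA sample and 1 Illumina WG-6 array, on which a probe's signal is the mean brightness of its beads in arbitrary units, with a detection p against the array's own background.

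The array of KO replicate 3 stood apart from the others. It detected 4302 probes at a detection p under 0.05, whereas 11846 and 15867 were detected on KO replicates 1 and 2 and 15504 to 16224 on the WT arrays, and its normalized signals correlated at 0.676 to 0.697 with those of the other arrays, which correlated at 0.973 or more among themselves. The array of KO replicate 1 was dim as well, with a mean signal of 149 against 219 to 252 on the WT arrays. Log2 values below were therefore normalized and fitted without KO replicate 3, over 2 KO and 3 WT mice. Values with it are given for some of them. Creb3l3 itself had signals of 148, 283 and 87.9 in KO and 1201, 949 and 929 in WT, which differ by -2.32 ± 0.15 (SE) on the log2 scale (limma, adjusted p = 0.00271), and by -2.72 over all 6 arrays (adjusted p = 0.574). The sources do not say whether its probe lies within the deletion. Of 8 hepatocyte markers 5 were tested, of which 3 lay above 0 and 2 below. Ttr, Apoa1, Hnf4a and Cyp3a11 were detected on every array, and Alb on every array but that of KO replicate 3. Fgb and Tat did not reach the detection filter, and Tf had no probe under that symbol. Markers of other cells were not called in either direction. Above 0 lay 5 of 5 tested Kupffer cell markers, 4 of 4 endothelial ones, 2 of 2 stellate cell ones and the cholangiocyte marker Sox9. Below 0 lay 3 of 4 erythroid ones. Of these Hba-a1 and Hbb-b1, at its brightest probe, stood at -1.38 and -1.34 with KO replicate 1 as the only KO mouse. With KO replicate 2 as the only KO mouse they stood at 0.0015 and 0.029. The stellate cell marker Acta2 was detected, at its tested probe, on KO replicates 1 and 2 but in WT on replicate 3 alone. It passed the detection filter only through the KO arrays, so its direction carries no weight. Lrat and Col1a1 did not reach the filter. The cholangiocyte markers Krt19, Krt7 and Epcam had no signal above background on any array. Summed deposited signals are not normalized and carry the brightness of each array. They were 806, 1935 and 425 in KO and 1345 to 1600 in WT for the Kupffer list. For the endothelial list they were 540, 1126 and 342 in KO and 717 to 828 in WT. For the erythroid list they were 3973, 28403 and 1130 in KO and 22785 to 26957 in WT. The hepatocyte list had 46867, 73934 and 3082 in KO and 67962 to 71030 in WT. After normalization the median log2 change was 0.47 for the Kupffer, 0.25 for the endothelial, -0.36 for the erythroid and 0.057 for the hepatocyte list. The part of these cells in the values below was not tested. No adipocyte, muscle or lymphocyte marker reached the detection filter.

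Fasted liver showed signal for most of the family. Of the 41 genes, 29 had a probe detected on at least 3 of the 5 arrays, 38 probes in all, and were tested. Another 4, Slc25a22, Slc25a29, Slc25a35 and Slc25a40, were detected on some array but not on enough. The remaining 8 had no probe detected on any array: the muscle and germ-cell ADP/ATP carriers Slc25a4 and Slc25a31, the glutamate carrier Slc25a18, the second ornithine carrier Slc25a2, the oxodicarboxylate carrier Slc25a21, the calcium-independent ATP-Mg/phosphate carrier Slc25a41, the brain uncoupling protein-like Slc25a27, and Slc25a46, which acts in mitochondrial fission. That a probe gave no signal does not show that its gene is silent. The number of carriers with a detected probe was 27, 29 and 14 on KO replicates 1, 2 and 3 and 28, 30 and 30 on WT replicates 1, 2 and 3, so that the KO and WT arrays differed little in this count apart from KO replicate 3. The filter could be passed by the 3 WT arrays alone but not by the 2 KO arrays alone, and it thus favours probes brighter in WT.

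**Figure D1:**
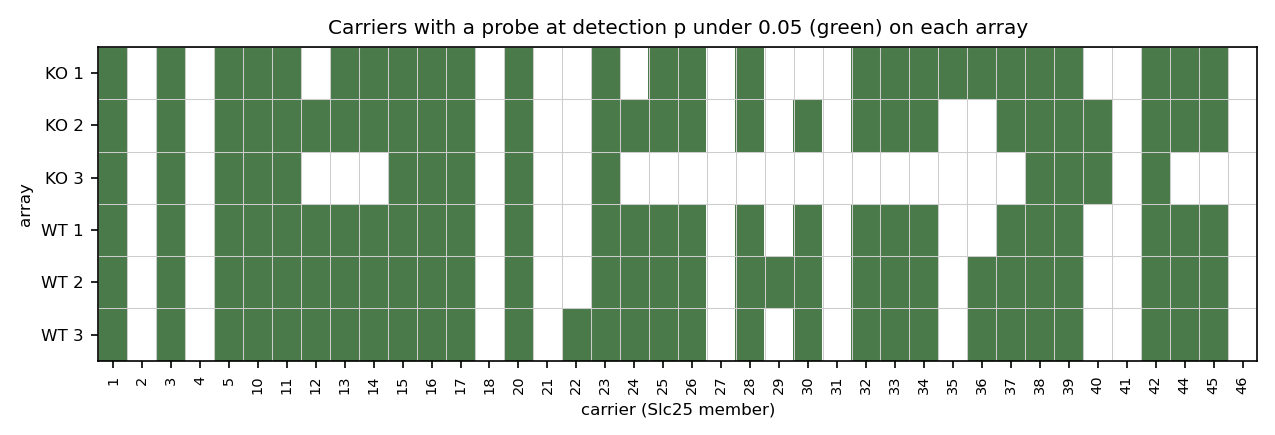
Carriers with at least 1 probe at a detection p under 0.05 (green) on each array, with the arrays in rows and 40 carriers, by their family number, in columns. The array of KO replicate 3 shows 14 of these carriers and the other arrays 26 to 29.

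No carrier was called between KO and WT. Across all 14345 probes limma called 49 at an adjusted p under 0.05, or 0.342% (0.0627% higher and 0.279% lower in KO), and 0 of the 38 carrier probes were among them. By direction alone 16 carrier probes lay above 0 and 22 below, or 42.1% and 57.9%, beside 45.3% and 54.7% of all probes. At an unadjusted p under 0.05, 6 carrier probes were lower and 0 higher in KO, or 15.8% and 0%, beside 7.47% and 4.66% of all probes. The lower ones belonged to Slc25a30, Slc25a13, Slc25a33, Slc25a25, Slc25a32 and Slc25a12. The KO and WT values did not overlap at 10 carrier probes that were lower in KO (26.3%, beside 16.4% of all probes) and at 3 that were higher (7.89%, beside 12.9%). The median log2 change was -0.08 over the 29 genes, each at its brightest tested probe, and -0.014 over all 10055 genes tested. In these bulk samples fewer cells of a type and less RNA per cell cannot be told apart. With KO replicate 3 included 0 of 14494 probes were called (0%), 0 of 38 carrier probes among them, and 3 carrier probes were lower (7.89%, beside 3.3% of all probes) and 0 higher (beside 0.552%) at an unadjusted p under 0.05. In that fit the groups did not overlap at 9 carrier probes lower in KO (23.7%, beside 13.4%) and at 1 higher (2.63%, beside 3.99%), and 10 probes lay above 0 and 28 below (26.3% and 73.7%, beside 27.3% and 72.7% of all probes).

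The largest difference among the 29 tested carriers was that of Slc25a30, the kidney mitochondrial carrier protein, which resembles the uncoupling proteins and whose human form moves sulphur oxyanions and phosphate. Its signals were 94.6, 139 and 79.7 in KO replicates 1, 2 and 3, against 244, 219.8 and 251 in WT replicates 1, 2 and 3. Each KO signal lay below each WT signal, and among the KO arrays that of replicate 2 alone was detected. On the normalized log2 scale the values were 4.36 and 5.73 in KO and 7.05, 7.18 and 7.46 in WT. Slc25a30 thus averaged 5.05 ± 0.97 in KO (SD, n = 2) and 7.23 ± 0.21 in WT (SD, n = 3), a log2 change of -2.18 ± 0.36 (SE). Since 1 of the 2 KO values comes from an array on which the probe was not above background, the size of the change is not settled: it was -1.04 without background correction and -0.94 in the authors' value table. Its unadjusted p was 0.000318 and its adjusted p by limma 0.0661, above the threshold of 0.05. With KO replicate 2 as the only KO mouse the change was -1.54 (adjusted p = 0.0487), and with all 6 arrays -2.30 (adjusted p = 0.653). With KO replicate 1 alone the probe passed the filter through the WT arrays only, and the value of -2.77 is a description. The gene was called under 9 of 16 alternatives, that one included, with a change of -2.77 to -0.94 and an adjusted p of 0.00172 to 0.776. It has a single probe, which gives no second measurement.

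The starts of the 4 carriers with the smallest p are shown because CREBH belongs to a family of factors that bind cAMP response elements. The sequences are RefSeq promoters of build GRCm38.p6, from 250 bases before to 50 after the annotated start and written 5′ to 3′ on the gene's strand, and capitals mark the half-site TGACG on either strand. Slc25a25 has 3 annotated starts, of which the one with a match is given.
Slc25a30 (chr14:75786988-75787287, minus strand): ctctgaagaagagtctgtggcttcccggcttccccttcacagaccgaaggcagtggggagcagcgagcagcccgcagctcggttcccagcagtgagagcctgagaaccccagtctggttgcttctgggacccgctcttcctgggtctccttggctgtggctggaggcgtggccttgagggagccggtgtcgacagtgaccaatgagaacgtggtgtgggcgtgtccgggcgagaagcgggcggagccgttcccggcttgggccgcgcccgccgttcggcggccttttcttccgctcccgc
Slc25a13 (chr6:6217124-6217423, minus strand): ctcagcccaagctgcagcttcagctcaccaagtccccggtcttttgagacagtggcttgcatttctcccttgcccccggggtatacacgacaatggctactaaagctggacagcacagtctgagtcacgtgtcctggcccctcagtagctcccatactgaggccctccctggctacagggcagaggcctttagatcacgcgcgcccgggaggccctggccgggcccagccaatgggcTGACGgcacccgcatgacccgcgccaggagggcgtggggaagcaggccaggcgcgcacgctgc
Slc25a33 (chr4:149774218-149774517, minus strand): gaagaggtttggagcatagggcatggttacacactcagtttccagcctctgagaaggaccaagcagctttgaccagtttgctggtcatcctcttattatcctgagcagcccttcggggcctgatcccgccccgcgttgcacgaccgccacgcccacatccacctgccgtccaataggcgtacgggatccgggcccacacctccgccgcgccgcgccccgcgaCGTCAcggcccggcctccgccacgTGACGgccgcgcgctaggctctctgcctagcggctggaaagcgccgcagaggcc
Slc25a25 (chr2:32424017-32424316, minus strand): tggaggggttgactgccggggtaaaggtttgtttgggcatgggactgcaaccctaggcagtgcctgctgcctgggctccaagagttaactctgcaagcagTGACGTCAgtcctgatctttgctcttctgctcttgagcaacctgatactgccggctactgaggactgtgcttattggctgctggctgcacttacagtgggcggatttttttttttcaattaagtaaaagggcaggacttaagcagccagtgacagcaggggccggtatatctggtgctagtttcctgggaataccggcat
The Slc25a30 window holds no TGACG, that of Slc25a13 holds 1 and that of Slc25a33 holds 2. In the Slc25a25 window the 2 half-sites overlap and form the full palindrome TGACGTCA. RefSeq gave 40 promoters for 31 of the 41 carriers. The half-site was found on either strand in 11 of these 40 and in 20.8% of all 32851 promoters, and the palindrome, which contains it, in 2 (Slc25a25 and Slc25a36) and in 1.79%. A direct repeat of AGGTCA spaced by 1 base, the element PPARA binds with RXR, was in none of the 40 and in 0.0396% of all. These matches describe letters in the window and are not evidence of binding.

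The ATP-Mg/phosphate carriers set the adenine nucleotide content of the matrix and, in part, respond to cytosolic calcium. Slc25a25, the calcium-binding form SCaMC-2, had signals of 218, 777 and 85.1 in KO and 1011, 782 and 1215 in WT. In these signals, which are not normalized, KO replicate 2 lay close under the lowest WT mouse. KO replicates 1 and 3, both dim arrays, lay far below, and on KO replicate 3 Slc25a25 was not detected. Its normalized log2 values were 8.60 and 9.12 in KO and 9.45, 9.43 and 10.11 in WT, which do not overlap, with a log2 change of -0.80 ± 0.26 (SE; unadjusted p = 0.0154, adjusted p = 0.332 by limma). The spread between the WT mice, 0.39 (SD), was about as wide as that between the KO mice, 0.37. Over all 6 arrays the change was -2.17 (adjusted p = 0.653). The other tested members stood nearer to 0: Slc25a23 at 0.29 ± 0.20 and Slc25a24, detected on 1 of the 2 KO arrays, at -0.14 ± 0.26.

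Pyrimidine nucleotides reach the mitochondrial polymerases through Slc25a33 and Slc25a36. Slc25a33 had signals of 155, 417 and 86.7 in KO and 532, 476 and 398 in WT. Only after normalization did the groups separate, at 7.61 and 8.08 in KO against 8.44, 8.62 and 8.32 in WT, a log2 change of -0.62 ± 0.20 (SE; unadjusted p = 0.0134, adjusted p = 0.322). Slc25a36, near background and not detected on KO replicates 2 and 3 or WT replicate 1, stood on the other side of 0. Its log2 change was 0.44 ± 0.33 (adjusted p = 0.603 by limma). This value came from KO replicate 1, whose normalized level was 5.77, whereas KO replicate 2 had 4.55 and the WT mice 4.54, 4.92 and 4.71, so the groups overlapped.

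Among amino acid carriers 3 genes lay above 0 and 2 below. Over the 5 tested of 9 the median was 0.13, and -0.52 with all 6 arrays (-0.014 and -0.28 over all genes). The 2 below 0 were the aspartate-glutamate carriers Slc25a12 (aralar) and Slc25a13 (citrin), which export aspartate from the matrix for the urea cycle and the malate-aspartate shuttle. Slc25a13, the form that liver mainly uses, was read by 2 probes. Its dimmer probe had signals of 107, 136 and 84.2 in KO and 181, 152 and 161 in WT, with normalized values of 5.69 and 5.68 in KO and 6.42, 6.31 and 6.44 in WT. The KO mice lay close together and below every WT mouse, with a log2 change of -0.70 ± 0.15 (SE; unadjusted p = 0.00176, adjusted p = 0.159), or 1.63-fold lower in KO. The brighter probe, with 117, 158 and 85.4 in KO and 178, 176 and 166 in WT, gave -0.31 ± 0.17 (adjusted p = 0.495). Both probes of Slc25a13 thus lay lower in KO without overlap, with changes of unequal size. Without background correction they stood at -0.33 (dimmer) and -0.16 (brighter), and in the authors' value table at -0.30 and -0.15. Slc25a12 had signals of 98.6, 118 and 86 in KO and 134, 113 and 117 in WT and a log2 change of -0.54 ± 0.22 (unadjusted p = 0.0381, adjusted p = 0.393), near background and detected on 1 of the 2 KO arrays. The change of Slc25a12 was -0.28 under cyclic loess, -0.18 without background correction, -0.16 under median scaling and -0.15 in the authors' value table.

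The amino acid carriers above 0 were not called. Slc25a15, the mitochondrial ornithine carrier of the urea cycle, had signals of 676, 1995 and 103 in KO and 1704, 1875 and 1290 in WT at its brighter probe and a log2 change of 0.22 ± 0.20 (adjusted p = 0.677). The groups overlapped, as they did at its second probe, at 0.08 ± 0.24. Slc25a44, a carrier of branched-chain amino acids, had signals of 148, 296 and 84.4 in KO and 278, 238 and 219.8 in WT. It stood at 0.16 ± 0.15 (adjusted p = 0.688) with normalized values of 7.44 and 7.44 in KO against 7.30, 7.35 and 7.18 in WT, higher in KO without overlap. Slc25a38, which brings glycine in for heme synthesis, stood at 0.13 ± 0.17, and its other probes at 0.029 and -0.16.

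**Figure D2:**
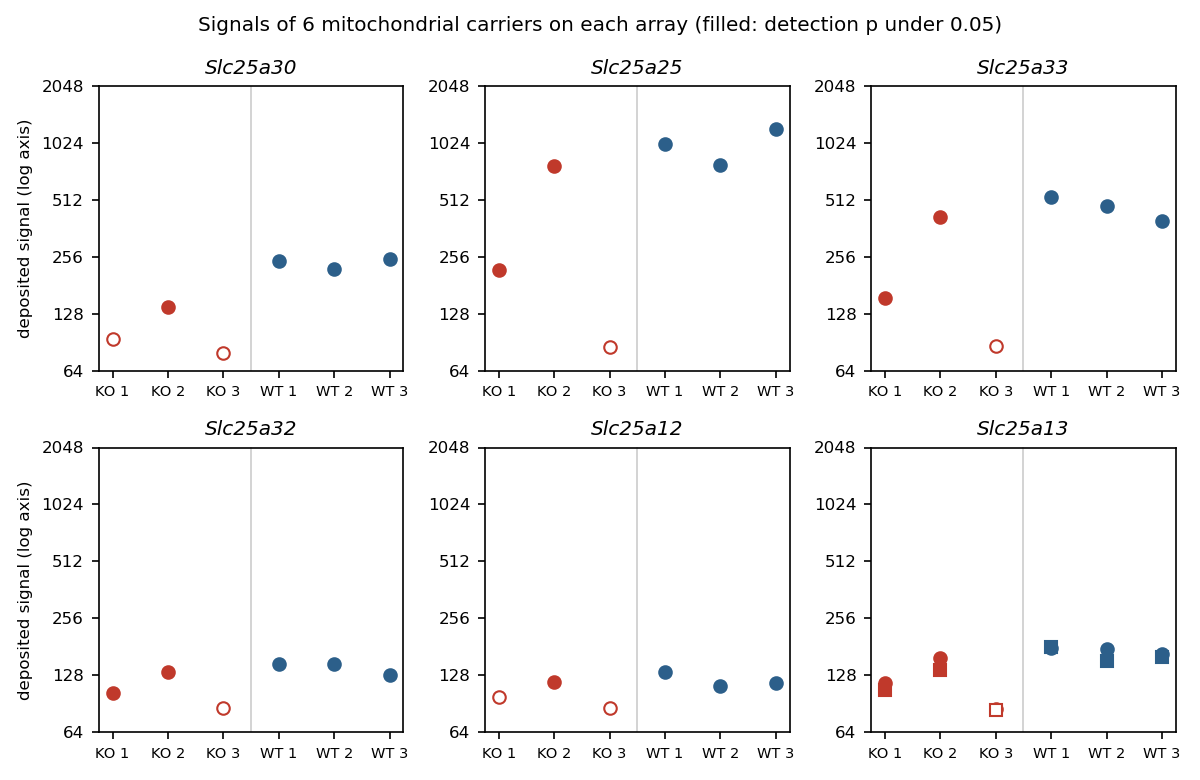
Deposited signals (arbitrary units, log axis) of the 6 carriers with a probe at an unadjusted p under 0.05, on the arrays of KO replicates 1 to 3 (red, left) and WT replicates 1 to 3 (blue, right), filled where the detection p was under 0.05. For Slc25a13 circles are the brighter probe and squares the dimmer one. Signals of KO replicate 3 lie between 79.7 and 86.7, none of them detected, and all KO signals of Slc25a30 lie below those of WT.

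The carnitine-acylcarnitine carrier Slc25a20, through which long-chain acyl groups enter the matrix, was read by 2 tested probes. The brighter had signals of 675, 2256 and 110 in KO and 2870, 2379 and 2156 in WT. After normalization it stood at 10.66 and 10.78 in KO and 11.07, 11.09 and 10.98 in WT, lower in KO without overlap, with a log2 change of -0.32 ± 0.15 (SE; unadjusted p = 0.0701, adjusted p = 0.45). The dimmer probe gave -0.28 ± 0.19 (adjusted p = 0.577), with groups that overlapped. A further probe was detected on no array.

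The di- and tricarboxylate carriers all had log2 changes below 0, with a median of -0.19 over 3 tested genes of 4, and 0 were called. Slc25a1, which exports citrate for lipid synthesis, had signals of 203, 622 and 92.6 in KO and 762, 461 and 502 in WT at its brighter probe, where the groups overlapped (-0.19 ± 0.20, adjusted p = 0.724). Its dimmer probe, with 122, 209.7 and 81.7 in KO and 229.5, 197 and 204 in WT, gave -0.29 ± 0.15 (adjusted p = 0.49) without overlap. Slc25a11, the oxoglutarate-malate carrier, had signals of 147, 323 and 93.4 in KO and 341, 323 and 286 in WT at its brightest probe. It stood at -0.27 ± 0.17 (adjusted p = 0.541), with 7.42 and 7.60 in KO and 7.67, 7.95 and 7.71 in WT, while its other probes, at -0.14 and 0.06, overlapped. Slc25a10, the dicarboxylate carrier, split the KO mice. Its normalized values were 9.23 in KO replicate 1 and 8.19 in KO replicate 2, on either side of 8.52, 8.98 and 8.90 in WT, so that the change of -0.09 ± 0.30 (adjusted p = 0.921) averages 0.43 with KO replicate 1 alone and -0.61 with KO replicate 2 alone. The deposited signals of Slc25a10 were 289, 447 and 91.5 in KO and 555, 589 and 563 in WT. Before normalization, then, every KO array lay below every WT array.

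The tested carriers of oxidative phosphorylation had differences near 0. Slc25a5, the ADP/ATP carrier ANT2, had signals of 2749, 8032 and 182 in KO and 6997, 6968 and 6186 in WT. Its normalized values were 12.62 and 12.66 in KO, inside the WT range of 12.41 to 12.71. The difference was 0.10 ± 0.17 (SE) on the log2 scale (adjusted p = 0.832). Slc25a3, the phosphate carrier, had signals of 894, 3076 and 128 in KO and 2853, 2999 and 2225 in WT at its brighter probe and of 213, 565 and 92.7 in KO and 530.0, 448 and 429 in WT at its dimmer one. It stood at -0.039 ± 0.19 (adjusted p = 0.951) at its brighter probe and at 0.09 ± 0.15 (adjusted p = 0.821) at its dimmer one. The groups overlapped at the brighter probe, and at the dimmer one KO was higher without overlap.

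Of the 6 tested cofactor carriers 3 lay above and 3 below 0, with a median of -0.040. Slc25a32, which carries folate and FAD, had signals of 103, 133 and 85.7 in KO and 147, 148 and 128 in WT. Its normalized values, 5.24 and 5.60 in KO and 5.90, 6.22 and 5.77 in WT, did not overlap, with a log2 change of -0.54 ± 0.20 (SE; unadjusted p = 0.027, adjusted p = 0.37). The change of Slc25a32 was -0.22 without background correction and -0.20 in the authors' value table. Slc25a42, the coenzyme A carrier, had signals of 181, 438 and 92.1 in KO and 438, 389 and 418 in WT and stood at -0.14 ± 0.17 (adjusted p = 0.759). Slc25a16 stood at -0.10 ± 0.16, the peroxisomal carrier Slc25a17 at 0.09 ± 0.17 and the S-adenosylmethionine carrier Slc25a26 at 0.023 ± 0.18.

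Iron and glutathione carriers lay near 0. The mitoferrins Slc25a28 and Slc25a37 stood at 0.23 ± 0.19 and 0.033 ± 0.20 and the glutathione carrier Slc25a39 at -0.006 ± 0.18, 0 of them called. Slc25a14, the other tested relative of the uncoupling proteins beside Slc25a30, had signals of 103, 109 and 82.5 in KO and 105, 102 and 103 in WT. It was higher in KO without overlap after normalization (0.27 ± 0.17, adjusted p = 0.541), and its log2 change over all 6 arrays was -0.00077. Slc25a34 and Slc25a45, whose substrates were treated as unsettled, stood at -0.08 ± 0.20 and -0.18 ± 0.19.

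**Figure D3:**
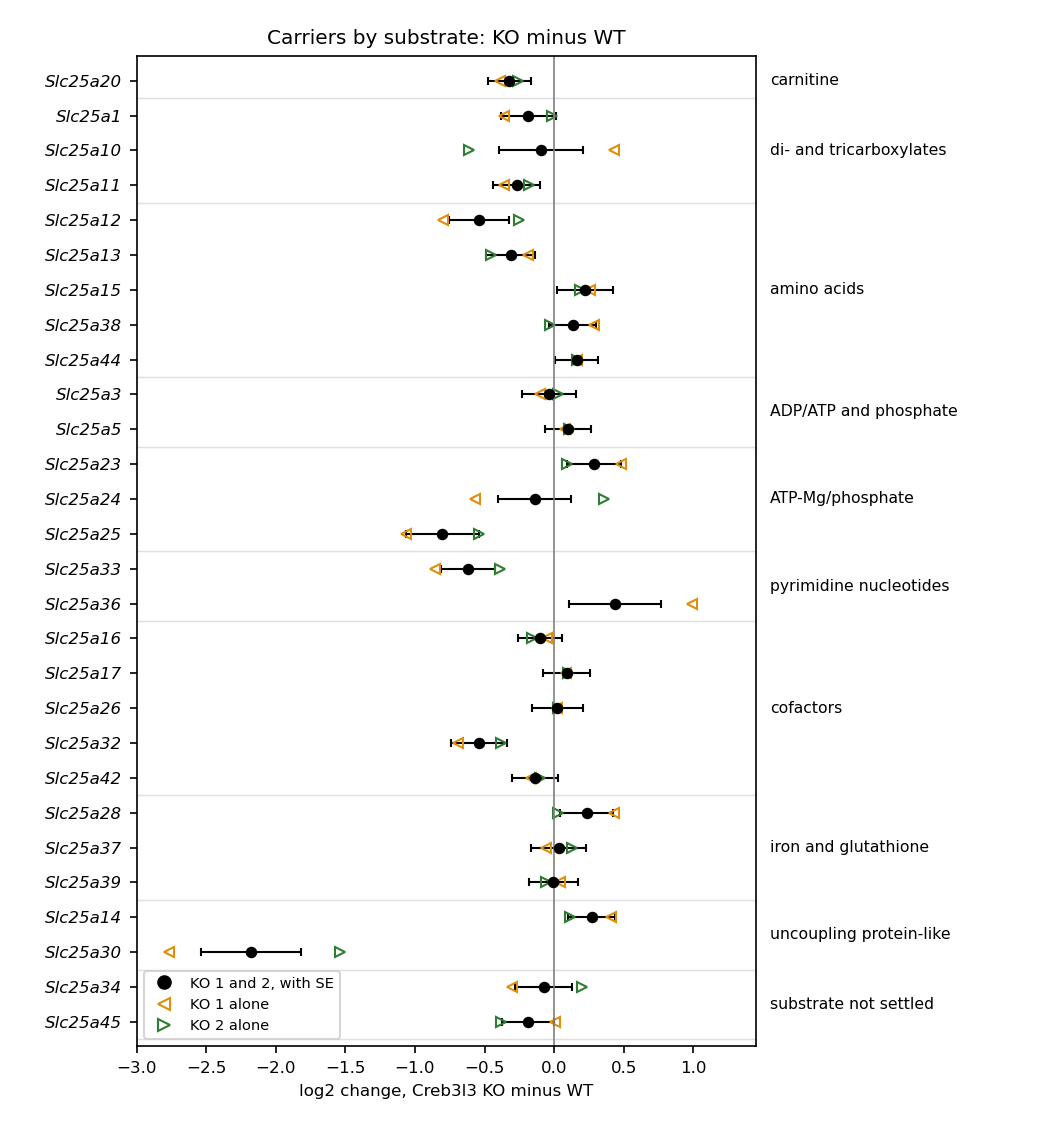
Log2 change between KO and WT livers of 28 tested carriers at their brightest tested probe, grouped by substrate, with the standard error (black, KO replicates 1 and 2), and with KO replicate 1 alone (orange) or KO replicate 2 alone (green) as the only KO mouse. Slc25a30 stands at -2.18 and the other carriers lie between -0.80 and 0.44. Slc25a36 could not be tested with KO replicate 2 alone.

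**Figure D4:**
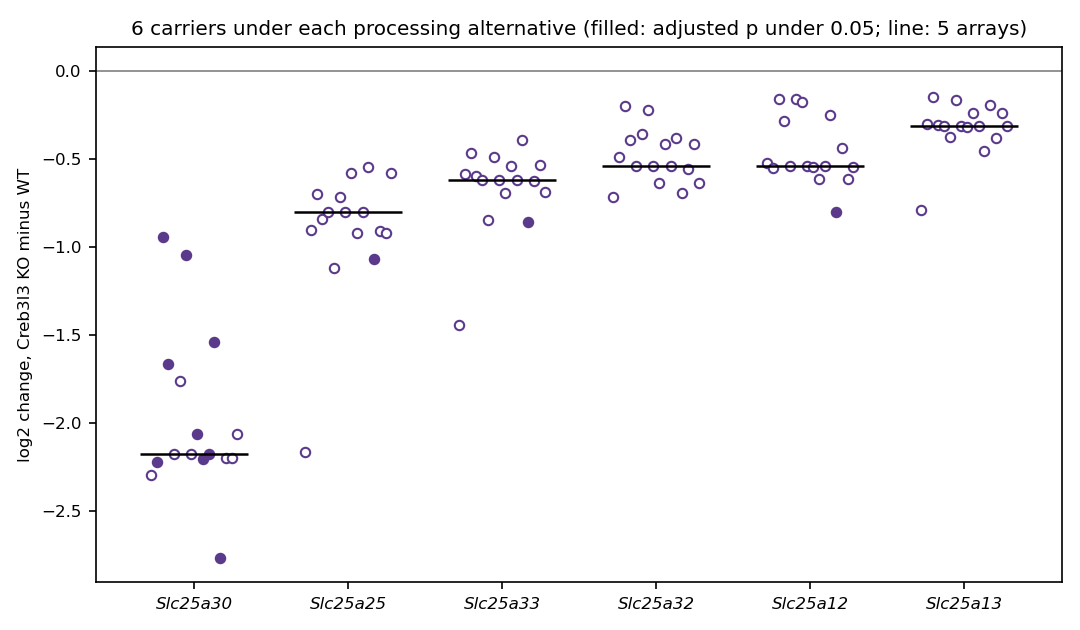
Log2 change between KO and WT livers of 6 carriers at their brightest tested probe under each processing alternative (circles, filled where the adjusted p was under 0.05) and in the fit of 5 arrays (line). Slc25a30 lies between -2.77 and -0.94 with 9 filled circles. Slc25a25, Slc25a33 and Slc25a12 have 1 filled circle each, with KO replicate 1 as the only KO mouse, and Slc25a32 and Slc25a13 have none; on that array Slc25a30 and Slc25a12 were not above background.

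The values of the single KO arrays are a description, since these probes were picked by a fit that pools the same arrays. With KO replicate 1 alone and KO replicate 2 alone the log2 changes were -1.07 and -0.54 for Slc25a25, -0.86 and -0.39 for Slc25a33, -0.69 and -0.38 for Slc25a32, -0.80 and -0.25 for Slc25a12, and -0.68 and -0.74 for the dimmer probe of Slc25a13. In each of these the dim array of KO replicate 1 gave the larger size except at Slc25a13. Over all 6 arrays the changes were -2.17 for Slc25a25, -1.44 for Slc25a33, -0.72 for Slc25a32 and -0.52 for Slc25a12. For Slc25a13 they were -1.04 at the dimmer and -0.79 at the brighter probe. None of these probes was detected on KO replicate 3, and the median change over all genes in that fit was -0.28. With KO replicate 1 alone 6 carrier probes were called, 1 higher (Slc25a36) and 5 lower (Slc25a30, Slc25a25, Slc25a33, Slc25a12 and the dimmer probe of Slc25a13), in a fit that called 2234 of 13351 probes in all. Of these, Slc25a30 and Slc25a12 were not above background on that KO array and passed the filter through the WT arrays alone. With KO replicate 2 alone the 1 carrier called, lower, was Slc25a30, of 41 calls in 14122 probes. Both fits share the WT mice and assume that the lone KO array varies as they do.

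The enzymes and channels that work beside the carriers were likewise not called. Of 35 tested genes in 7 lists 0 were higher and 0 lower by limma, with 14 above and 21 below 0. Over all 10055 genes tested, each at its brightest probe, 7 were called higher and 27 lower, with 4804 above and 5251 below 0. At their brightest probe 2 of the 35, Mpc2 among them, had an unadjusted p under 0.05, both lower in KO. Over all genes 1204 of 10055 had such a p at their brightest probe, in either direction. In the carnitine shuttle the plasma membrane carnitine transporter Slc22a5 stood at -0.51 ± 0.32 (SE, adjusted p = 0.537) at its brightest probe. There it was -1.09 for KO replicate 1 alone and 0.056 for KO replicate 2 alone. Its other tested probes stood at -0.42 and -0.27, and were below 0 with either KO replicate alone. The carnitine acetyltransferase Crat stood at 0.22 ± 0.20 and at -0.59 ± 0.19 (adjusted p = 0.314) at its dimmest tested probe, which was not above background on KO replicate 1, and 4 of 6 genes of this list were tested. The malate dehydrogenase Mdh1 of the malate-aspartate shuttle stood at 0.37 ± 0.27 at its brighter probe, with 0.73 for KO replicate 1 alone and 0.0083 for KO replicate 2 alone, and at -0.32 ± 0.19 at its dimmer one. Mdh2, the mitochondrial form, stood at 0.18 ± 0.18. Of the 6 urea cycle enzymes Nags, which makes the activator of the first step, stood at 0.35 ± 0.18 (adjusted p = 0.478) at its brightest probe. The other tested probes of Nags stood at 0.12 and -0.011, with groups that overlapped. Ass1 stood at 0.46 ± 0.27 (adjusted p = 0.508). The value of Ass1 was 0.83 for KO replicate 1 alone and 0.11 for KO replicate 2 alone. Among 5 enzymes that make or use citrate, Acly, the ATP citrate lyase, stood at 0.35 ± 0.16 (adjusted p = 0.442) and Me1, malic enzyme, at -0.34 ± 0.25 (-0.70 for KO replicate 1 alone and 0.027 for KO replicate 2 alone).

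Other mitochondrial transporters gave a similar picture. Mpc2, a subunit of the pyruvate carrier, stood at -0.44 ± 0.19 (SE; unadjusted p = 0.0436, adjusted p = 0.4 by limma) and the outer membrane channel Vdac3 at -0.40 ± 0.19 (adjusted p = 0.455), among 6 tested of 10. Ucp1 and Ucp3 had no probe detected on any array. In the import machinery that inserts carriers into the inner membrane Timm9, at -0.27 ± 0.19, and Tomm22, at 0.23 ± 0.16, had the smallest p of 5 tested genes. All 6 genes of mitochondrial iron and heme lay below 0 (median -0.08), among them the heme synthesis enzyme Alas1 at -0.31 ± 0.26.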

How the data were processed

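Arrays were grouped by the genotype and replicate number in the sample titles. Per the file headers, the deposited table of each array gives a signal intensity per probe, the average over its beads, neither normalized nor background-subtracted, and a detection p-value computed by the authors' software, BeadStudio 3 per the submitters' processing notes. The authors' value table holds linear intensity with column medians of 91.6 to 91.7. By rank each column matched best the deposited signals of the array with its label, except that WT replicates 2 and 3 were exchanged. How the value table was normalized is not stated in the labels or headers. It was used only as an alternative.

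The neqc function of limma 3.58.1 (R 4.3.3) corrected background by normexp from the detection p-values with an offset of 16, then applied quantile normalization and log2. The filter asked for 3 or more arrays at a detection p under 0.05. KO and WT were compared by lmFit and eBayes with no covariate, two-sided, with Benjamini-Hochberg adjustment over every probe that passed. Alternatives changed the normalization, background correction, filter, variance model, array weights, replicate block and the mice included. Probe brightness was compared within probes only. Only the model fit and its adjustment were tested on simulated data, drawn as normalized log2 values with the spread of the WT arrays. Background correction, normalization and the detection filter were not tested in this way. Gene symbols were updated through a RefSeq table of GRCm38.p6, in which 27740 probes had a current symbol, 8035 an older one and 9506 none. A gene stands by its brightest tested probe. Figures were drawn with matplotlib 3.10.9. The carriers, substrate groups, partner lists, markers and the omission of KO replicate 3 were chosen with earlier results of these data known. Signals on every array are given for carriers with a probe at an unadjusted p under 0.05 or with groups apart, and for Slc25a1, Slc25a5, Slc25a10, Slc25a13, Slc25a15, Slc25a20, Slc25a25 and Slc25a42 whatever their values; of each partner list the 2 genes with the smallest p are named. A carrier and a partner gene that enter these counts are not reported here by name. The number of arrays limits the precision.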

Additional observations from a re-analysis of the deposited data

How the results depend on the processing

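With 5 arrays all probes called numbered 83 under cyclic loess, 4 under median scaling, 85 without background correction, 83 in the authors' value table, 1 without a detection filter, 122 with a trended and robust variance and 32 with array weights, and leaving out 1 mouse gave 9 (without WT replicate 2 or 3) to 2234 (without KO replicate 2). The carrier probes called, 0 in the fit reported, were 1 (Slc25a30) under cyclic loess, without background correction, in the authors' value table, with the trended variance, with array weights and with either replicate block, and 0 to 6 when 1 mouse was left out. With 6 arrays all probes called were 3 under cyclic loess, 5 with the trended variance, 2832 with array weights and 0 to 49 when 1 mouse was left out, and carrier probes called were 7 with array weights. Slc25a30 had adjusted p-values of 0.211 without WT replicate 1, 0.252 without WT replicate 2 and 0.271 without WT replicate 3. Median scaling moved the median of all probes to -0.42, and its values are given relative to it. Its p-values by limma belong to the changes before this shift, among them the highest adjusted p of Slc25a30, 0.776.

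Some directions turned, and the causes were not tested. With all 6 arrays the log2 change became 0.034 for Slc25a3, -0.029 for Slc25a5, 0.21 for Slc25a11, -0.00077 for Slc25a14, -0.14 for Slc25a28, -0.35 for Slc25a37, -0.061 for Slc25a38, 0.21 for Slc25a39, -0.77 for Slc25a44, -1.08 for Nags, -0.67 for Acly and -0.015 for Tomm22. Under median scaling it became -0.11 for Slc25a5, -0.096 for Slc25a15, -0.17 for Slc25a17, 0.36 for Slc25a24, -0.065 for Slc25a26, -0.042 for Slc25a28, 0.31 for Slc25a34, -0.15 for Slc25a38, -0.025 for Slc25a44, -0.11 for Mdh2 and -0.074 for Tomm22. Cyclic loess gave 0.077 for Slc25a24 and 0.12 for Slc25a34, array weights 0.013 for Slc25a3 and 0.0098 for Slc25a39, and the mean of its probes 0.027 for Slc25a3. When 1 mouse was left out the ranges that crossed 0 were -0.12 to 0.11 for Slc25a3, -0.61 to 0.43 for Slc25a10, -0.57 to 0.36 for Slc25a24, -0.076 to 0.15 for Slc25a26, -0.31 to 0.20 for Slc25a34, -0.095 to 0.16 for Slc25a37, -0.14 to 0.31 for its older-named probe, -0.027 to 0.29 for Slc25a38, -0.099 to 0.091 for Slc25a39, -0.38 to 0.0056 for Slc25a45, -1.09 to 0.056 for Slc22a5 and -0.70 to 0.027 for Me1.

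The replicate numbers share no stated litter or day. Deviations of same-numbered mice from their group means correlated at -0.132 for both pairs in the 5 arrays. There the deviations of the KO mice mirror each other, so these pairs are not separate measurements. In the 6 arrays the 3 pairs correlated at -0.045, -0.048 and 0.037. With the replicate block 47 of all probes were called and Slc25a30 had an adjusted p of 0.00325 by limma, and Slc25a26 stood at -0.077. In this fit of the 5 arrays WT replicate 3 has no partner and does not enter the change. With WT replicates 2 and 3 exchanged, the block gave 0.11 for Slc25a3, 0.018 for Slc25a34, -0.096 for Slc25a37, -0.015 for its older-named probe and 0.093 for Slc25a39. A chip or scan as a block was not run, since the headers used here name none.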

Other observations

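A further 13 probes carried an older name that the RefSeq table pairs with a carrier, and so lay outside the family as defined by symbol. They stood for 10 genes, 5 of which had no probe under a Slc25a symbol, and 2 of the probes were tested. AI132487 is Slc25a47, a carrier expressed mainly in hepatocytes. Its signals were 1354, 4994 and 149.8 in KO and 6638, 5961 and 6630 in WT, detected on all 6 arrays. After normalization Slc25a47 stood at 11.66 and 11.95 in KO and 12.34, 12.45 and 12.61 in WT, so that each KO mouse lay below each WT mouse. It averaged 11.81 ± 0.20 in KO (SD, n = 2) and 12.47 ± 0.13 in WT (SD, n = 3). The log2 change was -0.66 ± 0.17 (SE), 1.58-fold lower in KO, with an unadjusted p of 0.00522 and an adjusted p of 0.241 by limma. The change was -0.64 with all 6 arrays, -0.51 with KO replicate 2 as the only KO mouse and -0.81 with KO replicate 1 alone. It lay below 0 under 16 of 16 alternatives. These use the same arrays again and are not independent measurements, and Slc25a16 and Slc25a42, with changes near 0, also kept their direction under 16 of 16. The other tested probe, named Mscp, belongs to the mitoferrin Slc25a37 and stood at 0.09 ± 0.20 (adjusted p = 0.873), beside 0.033 at the probe under its present symbol. Probes of Slc25a48, Slc25a51, Slc25a53 and Slc25a54 did not reach the detection filter.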
